A study of Mus musculus with 16 samples.

Results

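Naive CD4+ T cells that lacked GABPα were compared with GABPα-sufficient cells at rest, straight after sorting and before any stimulation. All 12393 genes that at least 1 probe set of the array named alone were tested, with the probe set of highest average over all 16 arrays standing for the gene. The comparison rested on 4 of those 16 arrays, 2 from Gabpaf/f mice (WT) and 2 from CD4CreGabpaf/f mice (KO), each from a separate biological replicate. Both genotypes were on the C57BL/6 background and carried the floxed Gabpa alleles, and KO mice also carried a CD4-Cre transgene, whose recombinase is first expressed in double-positive thymocytes and hence also in CD8+ T cells. CD4+ cells with the naive phenotype (CD25-CD62LhiCD44lo) were taken from spleen and lymph nodes by flow cytometric sorting. In the rest of the series, naive CD8+ cells were sorted in the same way, and a portion of every sort was stimulated for 18 h through CD3 and CD28 with IL-2, which gave 8 groups of 2 arrays. The ages of these mice and whether animals had been pooled were not given in the sources used here.

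GABP is a transcription factor of the Ets family. Its α subunit, encoded by Gabpa, binds DNA at sites with a GGAA core, and its β subunit, encoded by Gabpb1 or Gabpb2, activates transcription. Such sites often lie close to the start of widely expressed genes, and GABP is best known as a regulator of nuclear genes for mitochondrial proteins. Naive T cells are small, divide rarely and rely mainly on mitochondrial respiration for energy.

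Levels are deposited log2 values, differences are KO minus WT on that scale with the standard error (SE) of limma (n = 2 arrays per genotype), and p-values were adjusted by the Benjamini-Hochberg method over all genes tested. A gene was called where limma's adjusted p was under 0.05 and the fold was over 1.5. With arrays labelled only as biological replicates, these p-values measure only the spread between the samples. Array values are given with replicate 1 before replicate 2, and the median gene lay at 5.86 and 5.81 in WT and at 5.80 and 5.81 in KO arrays.

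The identity of the cells and the quality of the arrays were examined before the genes. Cd3e was 9.65 and 9.81 in WT and 9.45 and 9.84 in KO, and Cd4 was 7.0 and 7.26 in WT and 6.92 and 7.17 in KO, with overlapping groups for both. Cd8a, which defines the CD8 lineage, was 7.56 and 5.13 in WT and 5.57 and 4.42 in KO, highest in WT replicate 1. Cd8b1, of the same lineage, was 8.52 and 7.52 in WT and 8.05 and 7.39 in KO, with overlapping groups. Signal of CD8 lineage genes was thus present in these arrays. The replicates of a genotype were correlated across genes at r = 0.987 in WT and 0.993 in KO. The 3' probe sets of the actin and Gapdh controls exceeded the 5' ones by 1.58 in WT replicate 1 and by 0.48 to 0.79 in the other 3 arrays, a measure of RNA quality. Gabpa itself was 9.07 and 9.22 in WT and 9.79 and 9.67 in KO (difference 0.59 ± 0.20, adjusted p = 0.248). Whether its probe set lies inside the floxed exons was not given in the sources used here, so that this value checks nothing about the deletion. Gabpb1, the gene of the activating subunit, was 6.97 and 6.62 in WT and 8.04 and 8.29 in KO, and rose by 1.37 ± 0.22 (adjusted p = 0.0091). Gabpb2 was not analysed here.

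In resting KO cells 92 genes were lower (0.742% of the genes tested) and 66 were higher (0.533%). Among the 92 lower genes 73 changed by more than 2-fold and 14 by more than 4-fold, and among the 66 higher genes 41 and 6 did so. The median difference was -1.25 over the lower genes, 1.19 over the higher genes and -0.06 over all genes. In WT cells the median level was 7.42 over the 92 lower genes, of which 16 lay below the median gene, and 6.78 over the 66 higher genes, of which 30 did. The genes with the largest differences lay further apart, although choosing genes by the size of a fall or a rise partly fixes their starting level. Of the 15 lowest called genes all lay above the median gene in WT cells (median level 8.15), and 7 of the 15 lay below it in KO cells. Of the 15 highest called genes, 13 lay below the median gene in WT cells (median level 4.24), and only 2 did so in KO cells (median level 6.25). In all 158 called genes both KO arrays lay on the same side of both WT arrays. The same was true of 5141 genes in all, 3241 with KO below WT and 1900 with KO above WT, so that the absence of overlap alone did not mark the called genes.

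The calls depended on having 2 arrays per genotype. Without WT replicate 1, WT replicate 2, KO replicate 1 or KO replicate 2, 45, 39, 23 and 36 genes were called, of which 40, 37, 23 and 35 were among the 158. A stricter limma test, of whether a change exceeds 1.5-fold rather than 0, as in the methods of the study, called 16 lower and 4 higher genes. Whichever of the 4 arrays was left out, 19 genes kept their call, 15 of them lower (Ccz1, Nubp1, Zscan12, Mtx2, Yae1d1, Klk8, Mad2l2, Stoml2, Romo1, Pik3r4, Fbxo22, Idh3b, Lrrfip2, Slc25a45 and Poll) and 4 higher (Eme1, Lrrc6, Cenph and Cip2a). These are called stable below. Every other call named here was lost without at least 1 of the 4 arrays, and 94 of the 158 were lost in all 4 of these runs, although no called gene changed sign in any of them.

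**Figure D1:**
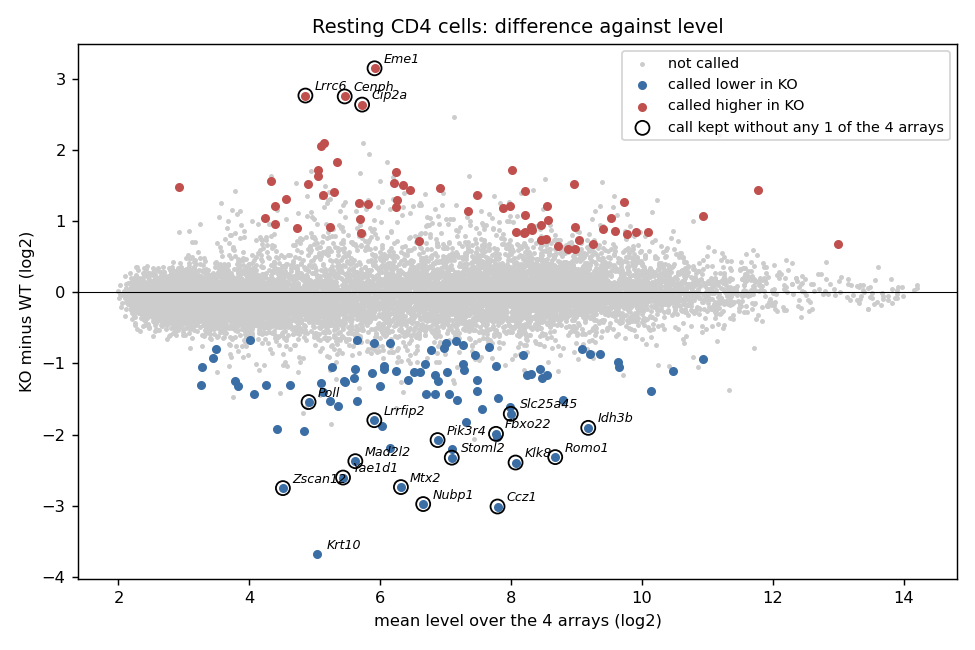
Difference of KO and WT (log2, vertical axis) against the mean level over the 4 arrays (log2, horizontal axis) for each of 12393 genes in resting CD4 cells. Blue and red points are the 92 genes called lower and the 66 called higher, and black circles mark the 19 genes whose call was kept without any 1 of the 4 arrays, from Nubp1 and Ccz1 near -3 to Eme1 at 3.15.

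Genes for the import of proteins into mitochondria and for the organization of their membranes held 4 of the 92 lower genes, among 38 measured, and 1 of the higher ones. Mtx2, which encodes metaxin 2 of the import machinery in the outer membrane, was 8.07 and 7.30 in WT and 5.20 and 4.70 in KO. Its level thus dropped from well above the median gene to below it (-2.74 ± 0.32, 6.67-fold, adjusted p = 0.00113). Romo1, whose product is a small inner membrane protein linked to reactive oxygen species and to cristae, was 10.17 and 9.49 in WT and 7.66 and 7.37 in KO (-2.32 ± 0.31, adjusted p = 0.00359). Stoml2, which encodes a membrane scaffold that binds prohibitins and cardiolipin, was 8.50 and 8.01 in WT and 6.0 and 5.86 in KO (-2.33 ± 0.26, adjusted p = 0.00113). All 3 were stable. Timm10, the gene of a small chaperone of the intermembrane space, was 8.95 and 8.64 in WT and 7.21 and 7.13 in KO (-1.62 ± 0.29, adjusted p = 0.0163). The 1 higher member was Mtx1, the gene of metaxin 1, which forms a complex with metaxin 2. It was 9.55 and 9.43 in WT and 10.24 and 10.44 in KO (0.84 ± 0.17, adjusted p = 0.0333), so that the genes of the metaxin pair were called in opposite directions. The median difference over the 38 genes was 0.02, and Tomm20, a receptor gene of the outer membrane and the brightest uncalled member, differed by 0.20 ± 0.16.

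Among the genes of the respiratory chain and of the TCA cycle single genes were called, and the list medians lay near 0. Idh3b, a subunit gene of the NAD-dependent isocitrate dehydrogenase, was 10.13 and 10.14 in WT and 8.30 and 8.15 in KO. It fell by 1.91 with an SE of 0.16 (adjusted p = 0.000175), was stable, and was the 1 called gene among 21 of the TCA cycle, whose median was -0.07. Ndufaf1, which encodes an assembly factor of complex I, was 7.49 and 7.01 in WT and 5.29 and 4.83 in KO (-2.19 ± 0.36, adjusted p = 0.0115), and was the 1 called gene among 43 for complex I subunits and assembly factors (median -0.03). Among 51 genes of complexes II to V (median -0.06), 2 subunit genes of cytochrome c oxidase were called. Cox8a was 10.33 and 10.02 in WT and 9.25 and 8.99 in KO (-1.05 ± 0.22). Cox6a1 was 12.71 and 12.61 in WT and 13.35 and 13.31 in KO (0.67 ± 0.15), the brightest of all called genes, and moved the other way. The medians of these lists depended on single arrays. Without WT replicate 1 they were 0.09 for the TCA cycle, 0.19 for complex I and 0.19 for complexes II to V. Without WT replicate 2 they were -0.15, -0.29 and -0.33, so that a small shift of the groups cannot be judged.

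Genes of mitochondrial translation gave 2 higher calls (Mrpl43 and Tufm) and 2 lower calls (Mrpl16 and Mtif2). Among 47 genes of the large mitochondrial ribosomal subunit Mrpl16 was lower (-1.23 ± 0.19, adjusted p = 0.0091) and Mrpl43 was higher (0.61 ± 0.13, adjusted p = 0.0404). None of 29 genes of the small subunit was called. Mrps35 had the lowest value there, at -0.93 (adjusted p = 0.0527). Among 33 genes of mitochondrial proteases, dynamics and translation factors, Mtif2, the initiation factor gene, was 8.54 and 8.70 in WT and 7.86 and 7.61 in KO (-0.89 ± 0.17), and Oma1, a protease gene of the inner membrane, was 7.58 and 7.70 in WT and 6.87 and 6.93 in KO (-0.73 ± 0.14). Tufm, which encodes the elongation factor, was 7.77 and 7.78 in WT and 8.54 and 8.69 in KO (0.83 ± 0.17) and was thus higher. Medians of these 3 lists lay between -0.04 and 0.03, but depended on single arrays. That of the large subunit was 0.14 without WT replicate 1 and -0.27 without WT replicate 2. Genes of mitochondrial tRNA synthetases had 0 calls among 11.

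Iron-sulfur cluster assembly, in which iron and sulfur are joined on scaffold proteins before transfer to enzymes, had 2 lower genes of 16 measured and a list median of -0.20. This median also depended on single arrays, being 0.05 without WT replicate 1 and -0.36 without WT replicate 2. Nubp1, which encodes an ATPase of the cytosolic scaffold, was 8.20 and 8.09 in WT and 5.50 and 4.84 in KO. The difference was -2.98 ± 0.28 (7.87-fold, adjusted p = 0.000302), and the call was stable. Hscb, the gene of a cochaperone for mitochondrial cluster transfer, was 7.86 and 7.68 in WT and 6.78 and 6.72 in KO (-1.02 ± 0.22, adjusted p = 0.0454). Yae1d1, whose product acts with iron-sulfur targeting factors to load a cluster on a ribosome recycling protein (known from yeast), was 6.59 and 6.88 in WT and 4.67 and 3.59 in KO (-2.60 ± 0.31, adjusted p = 0.00131) and was stable. Together with Trmt112, which encodes an activator of several methyltransferases and was 11 and 11.03 in WT and 9.86 and 9.97 in KO (-1.10 ± 0.18), it made up the 2 lower genes among 46 for cytosolic tRNA synthetases and tRNA modification. Slc25a45, a gene of the mitochondrial carrier family, was also stable, at 8.91 and 8.79 in WT and 7.02 and 7.26 in KO (-1.71 ± 0.21, adjusted p = 0.00143).

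**Figure D2:**
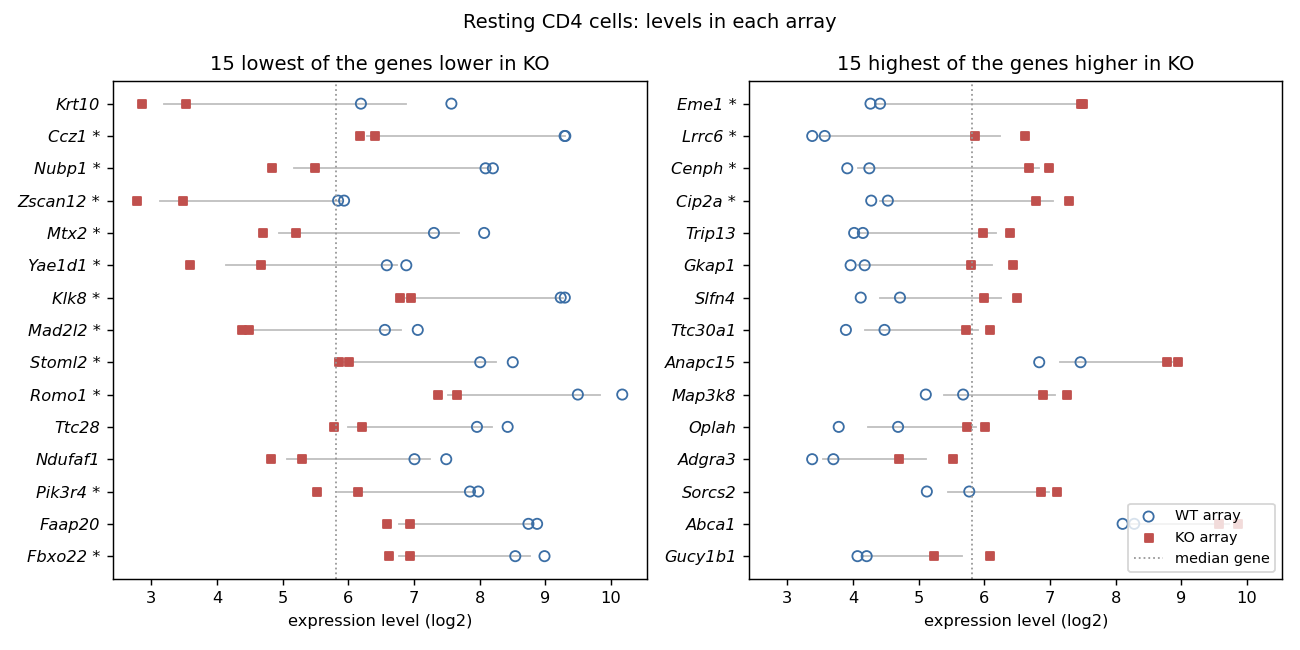
Expression level (log2, horizontal axis) in each array of resting CD4 cells for the 15 lowest and the 15 highest called genes. Open circles are WT arrays, squares are KO arrays, grey lines join the means, the dotted line is the median gene, and an asterisk marks a stable call. The genotypes do not overlap for any of the 30 genes, and 13 of the 15 higher genes shown lie below the median gene in WT cells.

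Genes of DNA repair changed in both directions, with 3 lower and 2 higher among 52 measured (list median 0.03). Mad2l2, which encodes a subunit shared by DNA polymerase zeta and shieldin, was 7.06 and 6.56 in WT and 4.38 and 4.49 in KO (-2.37 ± 0.26, adjusted p = 0.000941) and was stable. Faap20, the gene of a protein associated with the Fanconi anemia core complex, was 8.87 and 8.74 in WT and 6.94 and 6.60 in KO (-2.04 ± 0.34, adjusted p = 0.0118). Ercc5, an endonuclease gene of nucleotide excision repair, was 8.05 and 8.04 in WT and 7.38 and 7.17 in KO (-0.77 ± 0.16). On the higher side Eme1, whose product is the partner of the Mus81 endonuclease, was 4.27 and 4.41 in WT and 7.50 and 7.48 in KO. This was the largest increase of all called genes, 3.15 ± 0.23 or 8.86-fold, with the smallest adjusted p of the comparison (7.88e-05), and it was stable. Ercc3, the gene of a helicase of the repair and transcription factor TFIIH, was 8.01 and 8.10 in WT and 8.97 and 9.18 in KO (1.02 ± 0.15, adjusted p = 0.00828). Poll and Polm, polymerase genes of DNA end joining that were named after their values were seen, were both lower. Poll was 5.82 and 5.53 in WT and 3.90 and 4.37 in KO (-1.54 ± 0.18, adjusted p = 0.00113), and Polm was 6.20 and 5.99 in WT and 4.64 and 5.01 in KO (-1.27 ± 0.22, adjusted p = 0.0138). The list of 27 genes of DNA polymerases and the replication fork, which does not hold Poll and Polm, had 0 calls.

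Ccz1 had the lowest adjusted p among the lower genes. It encodes a subunit of the complex that activates the late endosomal GTPase Rab7, and its level was 9.30 and 9.29 in WT and 6.40 and 6.18 in KO. The WT arrays were almost equal, and the difference was -3.01 ± 0.24 (8.06-fold, adjusted p = 0.00011). Pik3r4, which encodes the regulatory subunit of the class III phosphatidylinositol 3-kinase of endosomes and autophagy, was 7.85 and 7.98 in WT and 6.15 and 5.53 in KO (-2.08 ± 0.24, adjusted p = 0.00113). Both were stable. Use1, a SNARE gene of traffic from Golgi to endoplasmic reticulum, was 11.01 and 10.67 in WT and 9.47 and 9.42 in KO (-1.39 ± 0.19, adjusted p = 0.005). Among the 72 measured genes of vesicle traffic and endolysosomes 1 was lower (Ccz1) and 1 was higher, with a median of 0.04. The higher one was Ap4b1, the gene of an adaptor subunit for sorting at the trans-Golgi network, at 8.14 and 7.82 in WT and 8.88 and 8.96 in KO (0.94 ± 0.14). Tgoln1, which encodes a protein of the same compartment, was 10.39 and 10.42 in WT and 11.45 and 11.51 in KO (1.08 ± 0.22, adjusted p = 0.0353). The list of vesicle traffic and endolysosomes is not complete, and Pik3r4, Use1 and Tgoln1 are not on it.

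Other lower genes of the 15 lowest belonged to no common process. Krt10, a keratin gene best known from epidermis, was 7.57 and 6.19 in WT and 2.86 and 3.52 in KO. It had the largest difference, -3.69 ± 0.54 (12.9-fold, adjusted p = 0.00667), and also the widest gap between WT arrays among these 15, and its call was kept in 2 of the 4 runs without an array. Zscan12, a zinc finger gene with a SCAN domain, was 5.93 and 5.84 in WT and 2.79 and 3.49 in KO (-2.75 ± 0.24, adjusted p = 0.000184). Klk8, a gene of the kallikrein family of serine proteases, was 9.30 and 9.23 in WT and 6.96 and 6.78 in KO (-2.39 ± 0.23, adjusted p = 0.000449). Fbxo22, the gene of an F-box protein that selects substrates for ubiquitination, was 8.99 and 8.54 in WT and 6.93 and 6.61 in KO (-1.99 ± 0.22, adjusted p = 0.00113). These 3 were stable. Ttc28 was 7.96 and 8.43 in WT and 5.78 and 6.21 in KO (-2.20 ± 0.41, adjusted p = 0.0215). Lrrfip2, stable and outside the 15 lowest, was 6.88 and 6.74 in WT and 5.21 and 4.82 in KO (-1.80 ± 0.20, adjusted p = 0.00113).

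Lower genes of immune function were spread over several lists, and some were on none. Cxcr3, a chemokine receptor gene of effector and memory T cells, was 6.49 and 6.34 in WT and 5.28 and 4.49 in KO (-1.52 ± 0.32, adjusted p = 0.04), and was the 1 called gene among 36 for cytokine and chemokine receptors. Slc2a3, which encodes the glucose transporter GLUT3, was 9.11 and 8.84 in WT and 8.05 and 7.74 in KO (-1.08 ± 0.19, adjusted p = 0.0149), 1 of 21 genes of glucose uptake and glycolysis. The 6 genes that follow were named after their values were seen. Pik3cg, the gene of the catalytic subunit of phosphatidylinositol 3-kinase gamma, was 6.82 and 7.11 in WT and 5.20 and 4.96 in KO (-1.88 ± 0.30, adjusted p = 0.00941). Ripk3, a kinase gene of necroptosis, was 7.84 and 7.82 in WT and 6.64 and 6.84 in KO (-1.09 ± 0.17, adjusted p = 0.0091). Il21, the gene of interleukin 21, was dim in both genotypes, at 3.93 and 3.88 in WT and 2.63 and 2.58 in KO (-1.30 ± 0.19, adjusted p = 0.00667). Ly96, which encodes the partner of Toll-like receptor 4, differed by -1.05 ± 0.22, Ms4a4d, a membrane protein gene, by -1.30 ± 0.27, and Matk, a kinase gene of blood cells, by -1.32 ± 0.25. In the other direction Pim1, a kinase gene induced by cytokines, was 8.42 and 8.61 in WT and 9.47 and 9.39 in KO (0.92 ± 0.17), the 1 called gene of 46 for T cell activation and early response. Map3k8, which encodes a kinase upstream of ERK, was 5.68 and 5.11 in WT and 7.26 and 6.90 in KO (1.69 ± 0.25, adjusted p = 0.00667).

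Genes of mitosis made up 7 of the 66 higher genes. On the list of mitosis and kinetochore genes, 7 of 52 measured were higher and 0 lower, and the list median was 0.49 against -0.06 for all genes. Without WT replicate 1, WT replicate 2, KO replicate 1 or KO replicate 2, 3, 2, 2 and 3 of the 52 were called, and the median stayed between 0.39 and 0.56. In 34 of the 52 genes both KO arrays lay above both WT arrays, and in 4 both lay below. Over all 12393 genes this held for 1900 and 3241. As the list was written with earlier results of these data known, its counts are no independent evidence. Cenph, the gene of a constitutive centromere protein, was 4.25 and 3.91 in WT and 6.98 and 6.68 in KO. The difference was 2.75 ± 0.32 (6.73-fold, adjusted p = 0.00123), and the call was stable. Cip2a, which encodes an inhibitor of protein phosphatase 2A, was 4.28 and 4.53 in WT and 7.30 and 6.79 in KO (2.64 ± 0.28, adjusted p = 0.000941), also stable. A dimmer probe set of Cip2a differed by only 0.14. Trip13, the gene of an ATPase that silences the spindle checkpoint, was 4.02 and 4.15 in WT and 6.39 and 5.98 in KO (2.10 ± 0.32, adjusted p = 0.00828). Anapc15, which encodes a small subunit of the anaphase-promoting complex, was 7.47 and 6.84 in WT and 8.95 and 8.78 in KO (1.71 ± 0.30, adjusted p = 0.0159). Of these 4, only Anapc15 lay above the median gene in WT cells. The other 3 were Cenpf (1.22 ± 0.21), the kinesin gene Kif22 (1.09 ± 0.24) and the cyclin gene Ccnb2 (0.91 ± 0.18).

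Other genes of the same list that mark cycling cells were not called. Bub1, a checkpoint kinase gene, was 4.15 and 4.53 in WT and 5.44 and 5.38 in KO (1.07 ± 0.37, adjusted p = 0.264), without overlap between the genotypes. Mki67, Top2a and Cdk1, named after their values were seen, differed by 1.40 ± 0.34, 0.90 ± 0.35 and 0.56 ± 0.28 (adjusted p = 0.0855, 0.344 and 0.53). The lists for earlier phases of the cycle held 0 calls. They were 22 MCM and origin genes (median 0.15), 27 genes of polymerases and the fork (0.12), 18 genes of nucleotide synthesis (0.05) and 25 genes of cyclins, kinases and E2F factors of G1 and S phase (0.11). In that last group Ccna2 had the highest difference, 1.25.

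Another set of higher genes encodes parts of cilia, although lymphocytes are not known for motile cilia. Lrrc6, whose product helps to assemble dynein arms, was 3.38 and 3.57 in WT and 6.62 and 5.86 in KO (2.76 ± 0.28, 6.79-fold, adjusted p = 0.00049) and was stable. Ttc30a1, a gene of intraflagellar transport, was 4.48 and 3.89 in WT and 6.08 and 5.73 in KO (1.72 ± 0.27, adjusted p = 0.0091). Drc1, which encodes a part of the dynein regulatory complex, was 6.13 and 6.22 in WT and 7.63 and 7.66 in KO (1.47 ± 0.27, adjusted p = 0.0192). Ift80, another transport gene, was lower, at 9.44 and 9.51 in WT and 8.75 and 8.62 in KO (-0.79 ± 0.16, adjusted p = 0.0362). Drc1 and Ift80 were named, and these 4 genes grouped, after their values were seen, so that the group supports nothing.

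Higher genes of signaling and metabolism included several that were dim in WT cells. Gkap1, whose product anchors a cGMP-dependent kinase, was 4.18 and 3.96 in WT and 6.44 and 5.80 in KO (2.05 ± 0.34, adjusted p = 0.0118). Gucy1b1, a subunit gene of the soluble guanylate cyclase, which makes cGMP, was 4.21 and 4.07 in WT and 6.09 and 5.23 in KO (1.52 ± 0.31, adjusted p = 0.0362). Oplah, which encodes the 5-oxoprolinase of the glutathione cycle, was 4.69 and 3.78 in WT and 5.73 and 6.01 in KO (1.64 ± 0.30, adjusted p = 0.0169). It was the 1 called gene of 35 for redox defence, but that list is not complete. Outside it the glutathione transferase gene Gstm4 (-1.31 ± 0.22) and the oxidized-nucleotide hydrolase gene Nudt1 (-1.13 ± 0.23) were lower, both named after their values were seen. Abca1, the gene of a cholesterol exporter, was already bright in WT cells, at 8.11 and 8.28 in WT and 9.87 and 9.57 in KO (1.53 ± 0.23, adjusted p = 0.00747). Slfn4 of the schlafen family was 4.72 and 4.12 in WT and 6.0 and 6.50 in KO (1.83 ± 0.30, adjusted p = 0.0109). The adhesion receptor gene Adgra3 (1.57 ± 0.34) and the sorting receptor gene Sorcs2 (1.54 ± 0.23) completed the 15 highest.

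Stress-related genes moved little as groups. The list for the unfolded protein and integrated stress responses (43 genes) had 2 higher genes and a median of 0.21. They were Atf6, a sensor gene of unfolded proteins, at 5.16 and 5.19 in WT and 6.15 and 6.26 in KO (1.03 ± 0.19), and Sdf2l1, a gene of the endoplasmic reticulum, at 6.14 and 6.33 in WT and 6.94 and 6.98 in KO (0.72 ± 0.16). Among 40 genes of p53 targets and apoptosis 1 was called, the growth arrest gene Gadd45g, at 5.56 and 5.63 in WT and 7.35 and 6.85 in KO (1.51 ± 0.28, adjusted p = 0.02). Among 46 genes of the proteasome 1 was called, Psma6, which encodes a subunit of the core ring. It was 11.31 and 10.80 in WT and 12.65 and 12.34 in KO (1.44 ± 0.23, adjusted p = 0.0091), and the median of the list was 0.04. Genes of mRNA splicing had 1 call in each direction among 48, with Snrpb, a core spliceosomal gene, lower (-0.87 ± 0.14) and Sart1 higher (0.73 ± 0.14). Among 42 genes of centrosomes and microtubules 2 were lower, Mcrs1 (-1.65 ± 0.26) and Tuba1a (-0.94 ± 0.21).

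**Figure D3:**
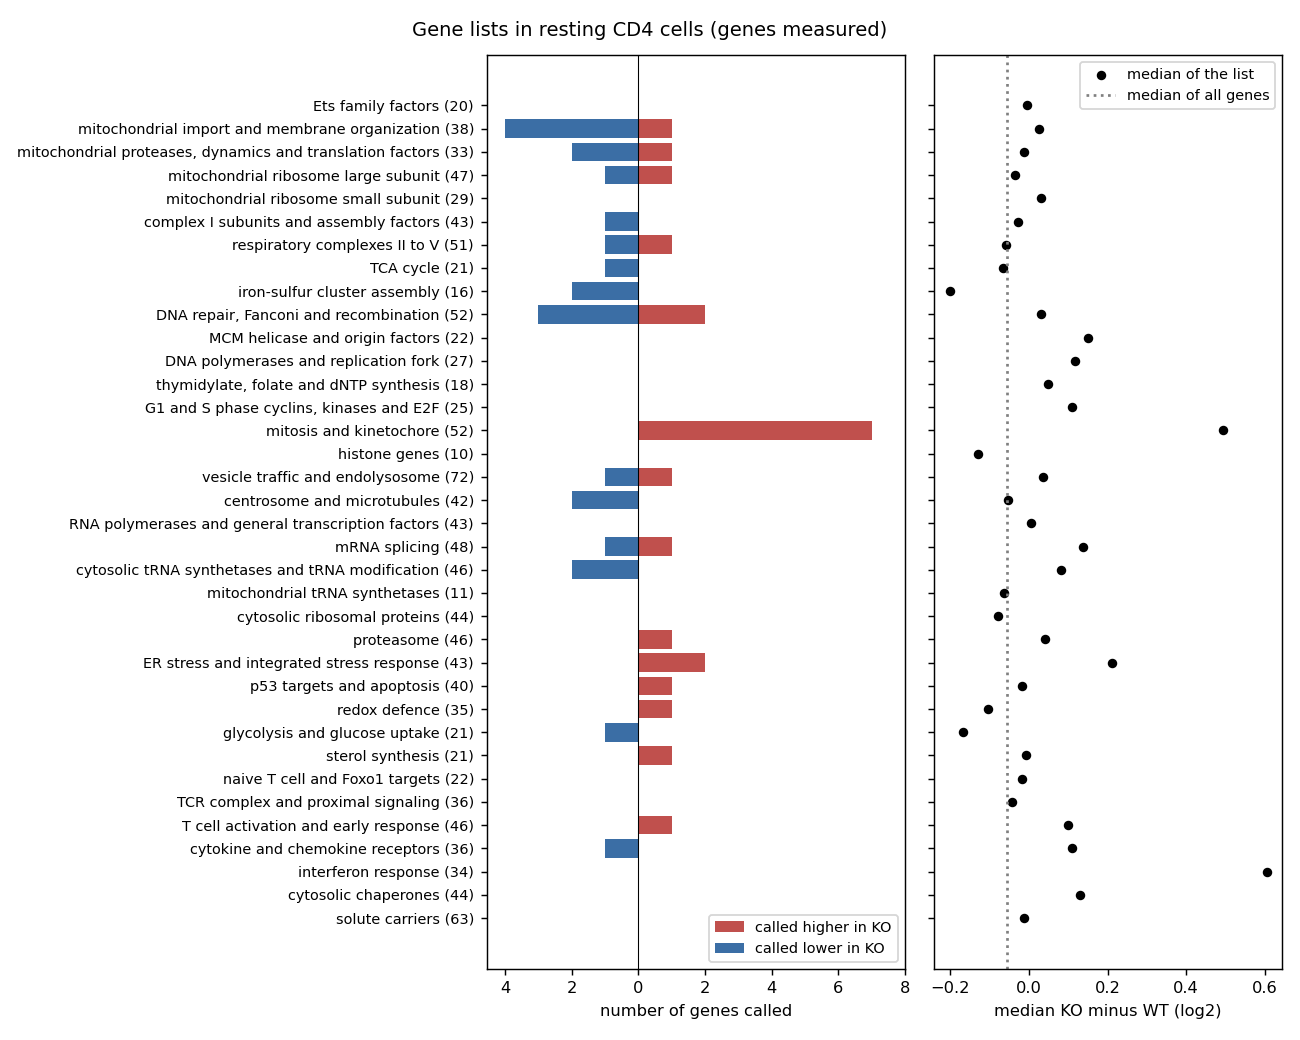
Left, number of genes called lower (blue, to the left) and higher (red, to the right) in resting KO cells for each list with at least 10 measured genes, the number measured being in parentheses. Right, median difference of KO and WT over the list (log2), with the median of all genes (-0.06) as a dotted line. Mitosis and kinetochore genes had 7 higher calls, and the interferon list had the highest median, 0.60, with 0 calls.

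Genes that define the naive state were not called. Among 22 genes of naive T cells and Foxo1 targets and 36 genes of the T cell receptor complex and its proximal signaling 0 were called in either direction by limma, with medians of -0.02 and -0.04. Il7r, the gene of the interleukin 7 receptor, was 11.91 and 11.69 in WT and 12.09 and 11.86 in KO (0.18 ± 0.55), and the groups overlapped. Lists for cytosolic ribosomal proteins (44 genes, median -0.08), RNA polymerases and general transcription factors (43, 0.00), cytosolic chaperones (44, 0.13) and Ets family factors (20, 0.00) likewise had 0 calls, although the higher TFIIH gene Ercc3, given with DNA repair, is not on the transcription list. A list of 63 solute carriers also had 0 calls (median -0.01), but it is not complete. Outside it, Slc2a3 and Slc25a45 were lower, and so were 2 genes named after their values were seen, the sugar transporter gene Slc50a1 (-1.15 ± 0.18) and the mitochondrial glycine carrier gene Slc25a38 (-0.71 ± 0.15). Interferon response genes had 0 calls among 34, but the highest median of all lists with at least 10 measured genes, 0.60. In 18 of the 34 both KO arrays exceeded both WT arrays, as they did in 1900 of all 12393 genes. An unadjusted p of 0.05 was passed by 3, a count not compared with all genes here. Without WT replicate 1 the median was 0.35, and without KO replicate 1 it was 0.94, so that it depended on single arrays. Of 31 measured genes that the study's text names, 11 were lower and 1 was higher. The study chose those genes on these samples, which makes this count no independent evidence.

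Markers of other cell types were examined because a sort can hold a few other cells. In these bulk samples, fewer cells of a type and less RNA per cell cannot be told apart. On the list of memory and effector markers 2 of 23 genes were lower (Cxcr3 and Ahnak) and 0 higher, the median was -0.51, and the sum of their log2 levels was 160 and 148 in WT and 149 and 135 in KO arrays. Without WT replicate 1, WT replicate 2, KO replicate 1 or KO replicate 2, the median was -0.22, -0.77, -0.82 and -0.15, and 0, 1, 0 and 0 of these genes were called. Cd44, a marker of such cells that the sort selected against, was 6.67 and 7.44 in WT and 5.73 and 5.58 in KO (-1.40 ± 0.45, adjusted p = 0.224). Crip1 of the same list was also lower in both KO arrays, by -1.37, without passing limma's test (adjusted p = 0.0614). Of the 23 genes, however, 5 had a positive difference, Gzmb the highest at 1.34. The 3 other probe sets of Ahnak differed by only -0.40 to -0.24, with 0 of them at an unadjusted limma p under 0.05. Cst3, a marker on the myeloid list, was lower in both KO arrays too (-2.06, adjusted p = 0.0984). Of the 18 genes of that myeloid list, however, 12 had a positive difference, and the median was 0.22. Of the NK cell markers 1 of 10 was lower, Fcgr3, at 6.53 and 5.61 in WT and 4.72 and 4.93 in KO (-1.25 ± 0.26). The natural killer receptor gene Ncr1 was 3.59 and 3.23 in WT and 3.09 and 2.82 in KO, without passing the test (adjusted p = 0.494). Of the 10 NK cell markers, however, 3 had a positive difference, Gzma the highest at 1.05. The median of the NK list was -0.15, and without WT replicate 1 it was 0.25. B cell (14 genes), myeloid (18), regulatory T cell (10), erythroid and platelet (9), thymocyte (9), CD4 lineage (8) and CD8 lineage (11) markers had 0 calls. All 11 CD8 lineage markers nevertheless had a negative difference, with a median of -0.38, and the sum of their log2 levels was 75.2 and 64.9 in WT and 67.6 and 62.2 in KO arrays, with overlapping groups. Cd8a, whose values are given above, differed by -1.35 ± 0.66 (adjusted p = 0.513). The B cell gene Cd79a lay between 3.82 and 4.14, close to the lower quartile of genes. Of the regulatory T cell genes, Foxp3 was 5.25 and 4.52 in WT and 4.35 and 4.13 in KO (-0.64 ± 0.30, adjusted p = 0.481), and Ctla4 was 7.33 and 6.79 in WT and 6.0 and 4.86 in KO (-1.63 ± 0.42, adjusted p = 0.108). Both were below WT in both KO arrays, while the median of that list was 0.01. Levels of Ccl5, Nkg7 and the MHC class II gene H2-Aa were higher in replicate 1 than in replicate 2 of both genotypes. Ccl5 was 8.66 and 6.81 in WT and 7.48 and 5.53 in KO and Nkg7 was 7.35 and 4.93 in WT and 6.21 and 4.69 in KO, both lower in KO than in the WT array of the same number (adjusted p = 0.554 and 0.804). H2-Aa was 8.41 and 6.28 in WT and 8.44 and 6.50 in KO. The part of such cells in the differences described here was not tested.

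**Figure D4:**
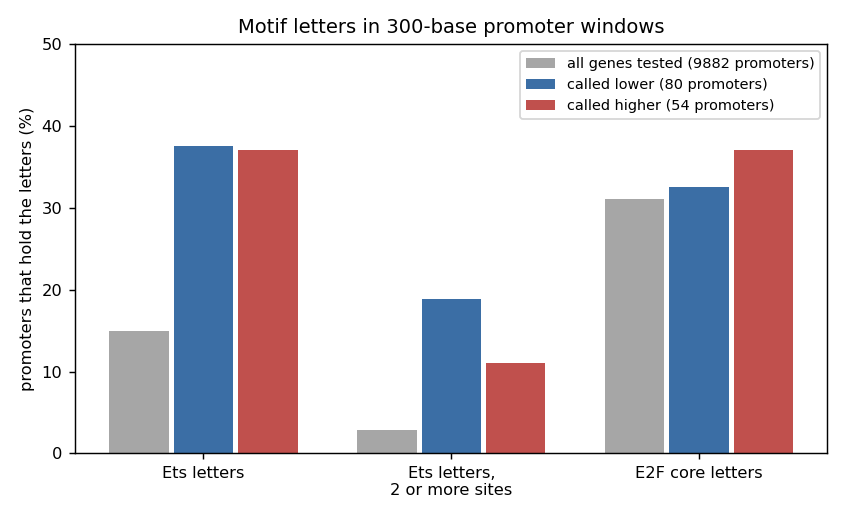
Share of promoter windows (percent, vertical axis) that hold the Ets letters, 2 or more sites with them, or the E2F core letters, for all genes tested (grey), genes called lower (blue) and genes called higher (red). The Ets letters are held by 15%, 37.5% and 37.0% of windows, and 2 or more sites by 2.86%, 18.8% and 11.1%.

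The promoters of the called genes were searched for the letters of a GABP site. RefSeq windows of assembly GRCm38.p6, from 250 bases before to 50 bases after the annotated start of transcription, were matched for 9882 of the 12393 genes, 80 of the 92 lower and 54 of the 66 higher. The letters CCGGAAG on either strand were present in 30 of the 80 lower genes (37.5%), 20 of the 54 higher genes (37.0%) and 1485 of all 9882 (15%). At least 2 sites were present in 18.8%, 11.1% and 2.86%. The letters GCGGGA on either strand, the core of an E2F site, were present in 32.5%, 37.0% and 31.1%, and the median GC content of the windows was 59.8%, 57.5% and 59.3%. These shares are a description, and no test was made of them. The called genes also had higher levels than all genes tested. Median levels in WT and KO cells were 7.42 and 6.02 for lower genes, 6.78 and 8.04 for higher genes and 5.83 and 5.79 for all genes. The share among genes of like level was not determined. Among the stable genes 9 of 14 lower ones with a window and all 3 such higher ones (Cip2a, Cenph and Eme1) held at least 1 site. No match, as for Nubp1 and Mad2l2, says only that these letters are not in this window.

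Windows of 4 stable lower genes and 2 stable higher genes are shown, each read 5′ to 3′ on the strand of the gene, with CCGGAAG or its reverse complement CTTCCGG in capitals. They show that a site can lie in a similar place in genes that moved in opposite directions, all from 60 bases before to 21 bases after the start.
Ccz1 (chr5:144014804-144015103, minus strand), Zscan12 (chr13:21362570-21362869, plus strand) and Mtx2 (chr2:74825562-74825861, plus strand) are lower genes with 1, 2 and 2 sites.
Ccz1: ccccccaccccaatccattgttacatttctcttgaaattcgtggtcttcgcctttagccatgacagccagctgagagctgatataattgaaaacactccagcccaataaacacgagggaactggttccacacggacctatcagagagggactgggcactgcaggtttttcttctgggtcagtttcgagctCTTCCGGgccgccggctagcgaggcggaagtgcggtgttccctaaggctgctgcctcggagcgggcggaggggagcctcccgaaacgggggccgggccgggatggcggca
Zscan12: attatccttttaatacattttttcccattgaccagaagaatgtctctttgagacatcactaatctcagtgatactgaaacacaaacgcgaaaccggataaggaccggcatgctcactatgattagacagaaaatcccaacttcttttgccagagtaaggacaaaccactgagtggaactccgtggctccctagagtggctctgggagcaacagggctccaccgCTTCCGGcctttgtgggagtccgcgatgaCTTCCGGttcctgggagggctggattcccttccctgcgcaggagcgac
Mtx2: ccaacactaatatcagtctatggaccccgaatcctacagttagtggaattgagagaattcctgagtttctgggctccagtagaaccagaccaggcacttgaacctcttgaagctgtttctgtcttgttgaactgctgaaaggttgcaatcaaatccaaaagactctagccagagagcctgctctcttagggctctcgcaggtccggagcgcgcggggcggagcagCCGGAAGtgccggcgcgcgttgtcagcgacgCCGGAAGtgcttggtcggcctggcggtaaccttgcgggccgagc
Romo1 (chr2:156143983-156144282, plus strand) is a lower gene with 2 sites, and Eme1 (chr11:94653694-94653993, minus strand) and Cenph (chr13:100775850-100776149, minus strand) are higher genes with 1 and 3 sites. A pair of the 3 in Cenph overlap on opposite strands.
Romo1: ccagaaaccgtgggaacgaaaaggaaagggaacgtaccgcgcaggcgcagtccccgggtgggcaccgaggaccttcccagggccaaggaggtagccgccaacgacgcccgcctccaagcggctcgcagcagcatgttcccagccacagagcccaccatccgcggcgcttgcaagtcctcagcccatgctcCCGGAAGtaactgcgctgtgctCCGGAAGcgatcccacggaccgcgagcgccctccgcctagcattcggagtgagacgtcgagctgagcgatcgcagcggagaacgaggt
Eme1: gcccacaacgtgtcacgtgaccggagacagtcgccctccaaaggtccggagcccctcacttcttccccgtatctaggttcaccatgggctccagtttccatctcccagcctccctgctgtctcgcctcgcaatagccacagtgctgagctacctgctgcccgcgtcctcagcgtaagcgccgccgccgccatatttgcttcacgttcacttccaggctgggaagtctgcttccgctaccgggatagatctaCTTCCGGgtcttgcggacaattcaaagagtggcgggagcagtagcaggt
Cenph: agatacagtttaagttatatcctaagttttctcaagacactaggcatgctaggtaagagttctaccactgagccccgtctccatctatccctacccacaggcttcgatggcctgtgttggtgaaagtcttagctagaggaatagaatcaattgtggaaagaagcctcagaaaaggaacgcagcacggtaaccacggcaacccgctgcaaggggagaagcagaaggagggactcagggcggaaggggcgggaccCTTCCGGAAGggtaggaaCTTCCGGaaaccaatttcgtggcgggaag

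Genes that share a start region with a called gene were compared with it. A measured gene on the opposite strand, head to head and starting within 1 kb, existed for 3 of the 92 lower and 4 of the 66 higher genes, and for 6.49% of all genes tested. None of the 8 neighbours was called. Over all genes tested only 4 of 804 such neighbours were called higher and 3 lower, so that few calls could be met among 8. Nfs1, which encodes the cysteine desulfurase of iron-sulfur assembly and faces Romo1, was 8.85 and 8.56 in WT and 8.0 and 8.05 in KO, below WT in both KO arrays (-0.68 ± 0.18, adjusted p = 0.122). Mrm2, a mitochondrial rRNA methyltransferase gene that faces the lower gene Nudt1, differed by -0.69 ± 0.23 (adjusted p = 0.235). Mrpl27, a mitochondrial ribosomal gene that faces Eme1, was 9.0 and 8.49 in WT and 8.28 and 7.99 in KO (-0.61 ± 0.31, adjusted p = 0.534). The sharp increase of Eme1 was thus not seen in its neighbour.

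Several called genes could be checked with a second measurement on the same arrays. For 60 of the 158 the array held more than 1 probe set naming the gene alone. In 44 of these another probe set moved the same way at an unadjusted p under 0.05, and in none did another move the opposite way at that level. Over the 88 other probe sets 85 had the same sign. Among the stable genes, the next brightest probe set differed by -2.42 for Nubp1, -2.04 for Yae1d1, -1.21 for Fbxo22 and -2.19 for Idh3b. The other probe sets of Cip2a, Trip13 and Cenpf were dim or moved little (0.14, 0.33 and 0.03, unadjusted p = 0.60, 0.343 and 0.850), so that the calls of these mitotic genes rest on 1 probe set each. Eme1, Cenph and Lrrc6 had no other probe set. Where all probe sets of a gene were averaged, 151 genes were called, of which 132 were among the 158. The lost calls included Trip13, Cenpf, Ap4b1, Ahnak, Cox6a1, Cox8a, Trmt112, Tufm, Slc2a3 and Pim1. Members of families with close relatives, such as Slfn4, Ttc30a1 and zinc finger genes like Zscan12, may share signal with those relatives.

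The difference at rest was set beside that in resting CD8 cells, measured on other arrays. The spread of each gene was estimated jointly for both, so that the calls are not fully independent. In CD8 cells 140 genes were higher (1.13% of the genes tested) and 62 were lower (0.5%). Of the 92 genes lower in CD4 cells 49 were also lower in CD8 cells, which is 53.3% of the CD4 and 79.0% of the CD8 calls. Of the 66 higher genes 40 were also higher, 60.6% of the CD4 and 28.6% of the CD8 calls. None was called in the opposite direction. The stable lower genes were called lower in CD8 cells in 14 of 15 cases, Stoml2 being the exception (-1.12), and the stable higher genes in 3 of 4, Lrrc6 being the exception (0.95). The difference of the KO effect between the lineages was tested for each gene. limma called 0 genes after adjustment, with 478 at an unadjusted p under 0.05 and a smallest adjusted p of 0.424, and a test against a 1.5-fold change also called 0. The call of 0 was not kept in every alternative, since 1 gene had a higher effect in CD8 cells without KO replicate 1 of the CD8 arrays and 3 did with the replicate number as a block. No gene is described here as particular to CD4 cells, and genes such as Cxcr3, at -1.52 in CD4 and 1.09 in CD8 cells, are given as values only.

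The difference at rest was also set beside that after 18 h of stimulation. As with the CD8 cells, the estimate of each gene's spread was shared. According to the labels, stimulated cells were a portion of the same sorts, so that the arrays are separate and the mice are shared, although which arrays came from 1 sort was not given. At 18 h, 513 genes were lower in KO cells (4.14% of the genes tested) and 337 were higher (2.72%). Of the 92 genes lower at rest 63 were also lower at 18 h (68.5% of the resting and 12.3% of the 18 h calls), and 0 were higher. Of the 66 genes higher at rest only 17 were also higher at 18 h (25.8% and 5.04%), and 5 were lower. All 15 stable lower genes were lower at 18 h as well, with Ccz1 at -3.55, Yae1d1 at -3.62, Pik3r4 at -3.45 and Romo1 at -3.19.

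A change of the KO effect from 0 h to 18 h was called for 175 genes, 65 with a higher (0.524%) and 110 with a lower effect at 18 h (0.888%). Among these were 29 of the 158 genes called at rest, of which 18 were higher at rest with a lower effect at 18 h. Cenph changed from 2.75 at rest to -1.24 at 18 h (change -4.0 ± 0.46, adjusted p = 0.00252). Trip13 changed from 2.10 to -2.31 (change -4.41 ± 0.45, adjusted p = 0.00145), and Kif22 from 1.09 to -1.64. Cip2a went from 2.64 to 0.18 and Eme1 from 3.15 to 1.04, the former with a residual difference below its SE of 0.28. The other 2 that were higher at rest and lower at 18 h were Sdf2l1 (-1.12) and Armcx4 (-0.72). Over the 52 mitosis and kinetochore genes, which had 7 higher calls at rest, 1 was higher and 21 were lower at 18 h (median -0.93), while 24 were higher and 0 lower in resting CD8 cells (median 1.07). In the opposite direction, Cxcr3 was lower at rest and at 0.62 at 18 h (change 2.14 ± 0.46), and the excess of Abca1 went from 1.53 to 3.04 (change 1.52 ± 0.32). The count of 175 fell to between 40 and 103 without any 1 of the 8 CD4 arrays.

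**Figure D5:**
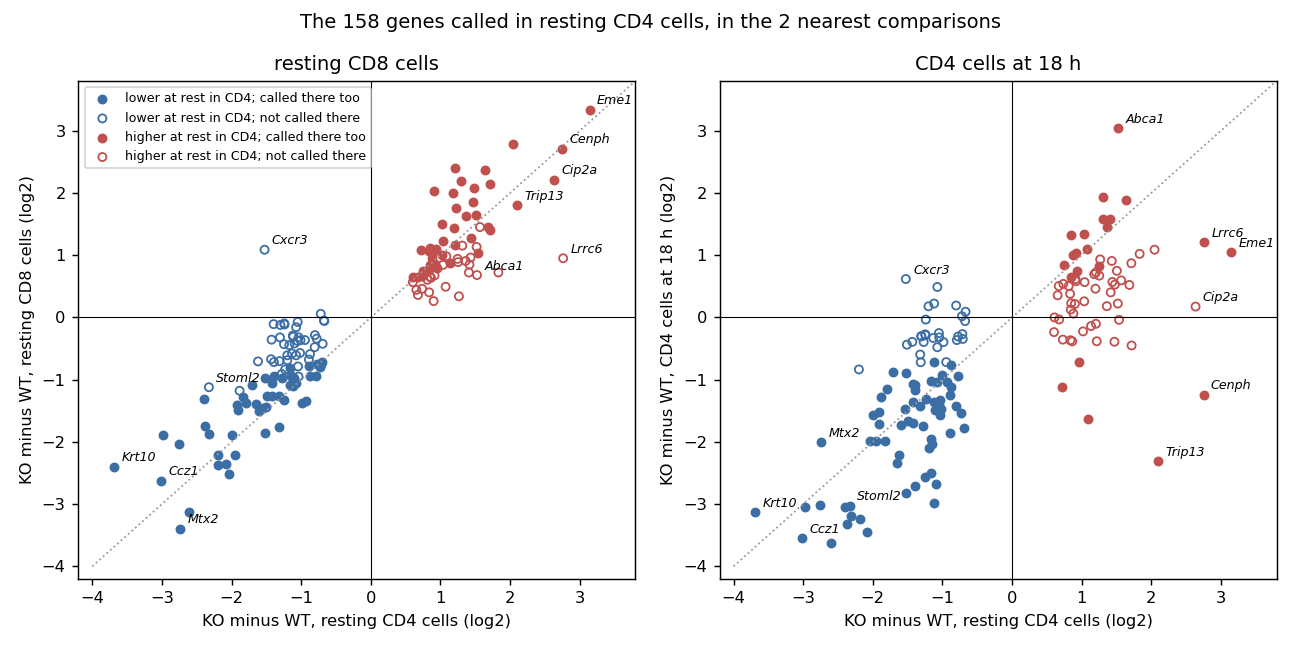
Difference of KO and WT (log2) in resting CD8 cells (left) and in CD4 cells at 18 h (right) against that in resting CD4 cells, for the 158 genes called there. Filled points were called in the other comparison too, and the dotted line marks equal differences. Lower genes lie below 0 in both panels with few exceptions, while 5 higher genes, Cenph and Trip13 among them, were lower at 18 h.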

How the data were processed

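Total RNA from sorted naive T cells was amplified in 2 rounds, labelled with biotin and hybridized to Affymetrix arrays. The study's methods name them M430 2.0, and only the probe sets of the deposited table were analysed here. The deposited table held log2 values per probe set, for which the authors had processed the scanned images with affy, a package for R (version not given in the sources used here). Values lay between 1.62 and 14.45 and were used without further normalization, so that a general rise or fall of RNA content cannot be seen in them. Of 22690 probe sets, 64 were controls, 20380 named 1 gene, 691 several and 1619 none in the platform annotation. Of those naming 1 gene, 20351 were matched in the RefSeq table of GRCm38.p6.

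A mean per group was fitted to all 16 arrays with limma 3.58.1 in R 4.3.3 (8 residual degrees of freedom, prior 4.32), with two-sided tests. Precision is limited by the number of arrays. The steps were tested on simulated data. Members of the gene lists, and the lists themselves, were chosen with earlier results of these data known. The text names the GABP subunits, the 15 calls with the lowest and the 15 with the highest difference, the 8 brightest calls, up to 5 called and 2 uncalled members of each list, up to 5 genes in each direction of the 2 tests of a difference between effects, and genes that the study's text names. Genes outside this rule were chosen after their values were seen. These were Slc25a45, Slc25a38, Slc50a1, Lrrfip2, Poll, Polm, Drc1, Ift80, Kif22, Ccnb2, Ccna2, Mki67, Top2a and Cdk1. Further ones were Pik3cg, Ripk3, Il21, Ly96, Ms4a4d, Matk, Armcx4, Gstm4, Nudt1, the head-to-head neighbours and genes given only for a changed effect at 18 h. Markers outside the rule were Cd3e, Cd4, Cd8a, Cd44, Cd79a, Foxp3, Ctla4, Ncr1, Nkg7 and Ccl5. Alternatives covered the tested fold, centring, quantile normalization, a filter on low levels, averaged probe sets, the replicate number as a block, array quality, the variance model, array weights, fewer groups and leaving out each array.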

Additional observations from a re-analysis of the deposited data

Results flagged for a closer look

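The effect of GABPα deficiency in CD4 cells differed between 18 h and 0 h, by limma's test of the difference with Benjamini-Hochberg adjustment, for 29 genes called at rest and for 8 others named by rule. The values that follow are effects at 18 h minus effects at rest (log2). Lower effects at 18 h were found for genes of chromosome segregation and replication, with Trip13 at -4.41, Cenph at -4.0, Rrm2 at -3.36, Bub1 at -3.30, Uhrf1 at -3.27, Kif22 at -2.72, Cip2a at -2.46, Cenpf at -1.60 and Topbp1 at -1.25, and for the repair genes Eme1 at -2.10 and Ercc3 at -1.24. Of these, Rrm2, Bub1 and Uhrf1 were not called at rest. Other genes that were higher at rest and had a lower effect at 18 h were Ttc30a1 at -2.17, Drc1 at -1.86, Sdf2l1 at -1.85, Armcx4 at -1.68, Sorcs2 at -1.58, Nup107 at -1.31, Mettl6 at -1.27, Ccdc102a at -1.20, Sart1 at -1.09 and Zpr1 at -0.84.

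A smaller number of genes were lower at rest and lower still at 18 h. They were Nudt1 at -1.85, Ripk3 at -1.59, Cops7a at -1.33, Mtmr9 at -1.32 and Rpap1 at -1.09. The reverse, a lower level at rest with a higher effect at 18 h, was seen for Cxcr3 at 2.14, Rgs11 at 1.56, Ahnak at 1.38, Adh1 at 1.34 and Ankef1 at 0.99. Abca1 was higher at rest and rose further, by 1.52.

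Genes at low levels at rest in both genotypes had the highest changes of effect, with Mmp13 at 4.54, Stc1 at 4.42, Zeb2 at 3.74, Il1a at 3.71 and Tnnt2 at 3.05.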

How the results depend on the processing

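Counts of calls fell most with a stricter test, without 1 of the compared arrays, or with the 4 compared arrays alone. With the 8 CD4 arrays alone or the 8 arrays at 0 h alone 177 and 150 genes were called at rest against 158. The 66 higher and 92 lower genes at rest became 4 and 16 with the test against 1.5-fold, 13 and 33 with the 4 compared arrays alone, and 6 to 22 and 17 to 30 without 1 array. Leaving out the 3 arrays with the greatest gap between 3' and 5' controls, 56 genes were lower. Fewer than 66 were higher in that run, and many of the 158 calls were lost. WT replicate 1 of the resting CD4 cells was 1 of these 3 arrays, so that the comparison was left with 1 WT array. The 65 higher and 110 lower changes of effect from 0 h to 18 h became 13 and 13 with the test against 1.5-fold and 17 to 44 and 21 to 68 without 1 array, and with those 3 arrays left out 41 were higher. For the difference between lineages 0 to 1 genes were higher and 0 lower without 1 array. With centred arrays or quantile normalization 174 and 180 genes were called at rest, 153 and 150 of them among the 158, with 45.4% and 43.9% higher against 41.8%. The higher share was 28.3% with the 4 arrays alone and 23.1% to 48.9% without 1 array. No named gene called at rest changed sign under any alternative run.

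The labels give the same replicate numbers to all groups and say that sorts were divided between 0 h and 18 h, but not that equal numbers mark 1 sort or day. Differences between replicates correlated at 0.437 between WT and KO at rest and at 0.264 to 0.45 over the 6 pairs of CD4 groups. With the replicate number as a block within each lineage, 122 genes were higher and 159 lower at rest, including all 158, 3 effects were higher in CD8 than in CD4 cells, and 119 effects were higher and 231 lower at 18 h than at 0 h. The cause of these shifts was not tested.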
